A study of Mus musculus with 2 samples.

Results

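Tower peaks are the peaks in which the coverage of H3K9me2 tags rose to a pileup of 100 or more, where the pileup is the number of overlapping tags, each extended to the fragment length, averaged over the peak. They were chosen by that value alone, separately in each list and on chromosomes 1 to 19 and X. The wild type (WT) list held 134 of them among 31622 peaks, or 0.424% of the list, and the knockout (KO) list held 114 among 32148, or 0.355%. The deposited lists held 64157 peaks in all on every chromosome and scaffold. Merged within 10 kb over both lists, the 248 tower peaks made 111 sites, and the peaks below 100 are called ordinary here.

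The study mapped H3K9me2 by CUT&Tag in activated B cells from mice of strain C57BL/6, with 1 library of genotype WT and 1 of genotype jmjd1c B KO. CUT&Tag uses an antibody to bring a transposase to a chromatin mark, so that DNA beside the mark is cut and tagged for sequencing. Jmjd1c is a Jumonji-domain protein of the KDM3 family, whose members include H3K9 demethylases, and the label places its loss in B cells. The labels used here name no Cre line, activation stimulus, age or number of mice. With 1 library per genotype no difference between the genotypes could be tested, no p-value is given, and every comparison is between these libraries. The total was 33474010 tags in WT and 34502392 in KO, and tags were extended to a fragment length d of 292 bp (WT) or 189 bp (KO). The mean pileup of the genome given by those numbers was 5.23 in WT and 3.49 in KO. The lists could not check the knockout: neither held a peak inside Jmjd1c.

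H3K9me2 is a mark of transcriptionally quiet chromatin, laid down mainly by the G9a and GLP enzymes over broad stretches of gene-poor DNA. Broad domains show as fields of many modest peaks. Very tall and narrow peaks are familiar in sequencing of other chromatin marks, where unresolved repeats, satellite DNA and sequence that is missing from the assembly can gather reads, and such places are commonly collected in exclusion lists. No exclusion list, repeat annotation or mouse genome sequence was used here, and the origin of the tower peaks was not tested.

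Part of the sequence of a tower could be shown at 1 site. Of the 32851 promoter windows tabulated from RefSeq (GRCm38.p6, the assembly behind mm10), 1 overlapped a tower peak. It belongs to Gm40237, a long noncoding RNA gene, and covers chr4:118547156-118547455 on the plus strand. The WT tower there ran from 118547199 to 118548737 with a pileup of 186.3, and the KO tower from 118547216 to 118548716 with 156.8; the site lay 2.28 kb from the coding gene Tmem125. The window is shown because its sequence repeats itself along its length. Capitals mark an 88-base stretch that the following 88 bases copy without a mismatch.
Gm40237: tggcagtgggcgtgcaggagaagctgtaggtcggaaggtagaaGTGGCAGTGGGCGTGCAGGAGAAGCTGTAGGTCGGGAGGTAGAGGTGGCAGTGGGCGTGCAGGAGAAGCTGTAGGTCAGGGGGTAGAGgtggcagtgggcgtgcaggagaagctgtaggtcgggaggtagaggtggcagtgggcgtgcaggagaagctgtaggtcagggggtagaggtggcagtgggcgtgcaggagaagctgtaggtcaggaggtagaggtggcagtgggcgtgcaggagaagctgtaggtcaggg
Shifted against itself by 88 bases, the window matched at 97.6% of positions, and shifted by 44 bases it matched at 96.1%. Over all promoter windows the median best match at a shift of 20 to 100 bases was 33.5%, and 18 windows, or 0.0548%, reached 80%. The Gm40237 window had the highest match of the table, and its GC content was 62.7% against a median of 52.7%. This describes 1 promoter window. Most of the tower there lies past the end of the window, and nothing is said of its sequence or of that at the other sites.

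Tower heights spread widely, and most towers were far lower than the tallest. The WT towers had a median pileup of 189.9 (quartiles 127.4 and 712.1, range 100.5 to 54547.7), and the ordinary WT peaks a median of 25.3. The KO towers had a median of 254.5 (quartiles 142.0 and 886.7, range 100.9 to 66281.3), and the ordinary KO peaks 19.1. A pileup of 1000 or more was held by 30 WT and 27 KO towers, and one of 10000 or more by 8 WT and 10 KO towers. Because the pileup chose the towers, these values are a description.

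A small part of the covered length carried much of the signal in the lists. The tower peaks covered 111736 bp in WT, 0.622% of the length of all peaks, and 75782 bp in KO, 0.514%. The number of tags a peak implies was estimated as its pileup times its width divided by d, a measure added after seeing the data. By this estimate the towers held 31.3% of the tags in all WT peaks and 37% of those in all KO peaks. Relative to all tags of the library the shares were 2.35% and 2.81%, and the 12 highest peaks alone held 1.72% in WT and 2.05% in KO. The ordinary peaks together held 5.15% and 4.78% of all tags.

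The highest tower of both lists lay between genes on chromosome 8. It ran from 83756676 to 83757130 in WT, with a pileup of 54547.7, and from 83756767 to 83757027 in KO, with 66281.3. The nearest coding gene was Adgre5, which encodes the adhesion receptor CD97, 15.4 kb away, and no ordinary peak lay within 500 kb in either list. Next came a site of 3 towers in each list at chr2:98662235-98667360, with highest pileups of 33739.5 in WT and 32538.6 in KO. It lay 1030.6 kb from Lrrc4c, a gene for a synaptic adhesion protein, also with no ordinary peak within 500 kb.

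Of the 12 highest sites, 9 were the last WT peak of their chromosome. On chromosome 14 the tower beyond Fgf14, a fibroblast growth factor family gene, had a pileup of 28009.0 in WT and 25670.2 in KO. On chromosome 7 the one beyond Mrgprd, a receptor of sensory neurons, had 22448.7 and 22757.0. The tower beyond Tmem196 on chromosome 12 reached 18743.7 and 21011.5, so KO was above WT there and below it on chromosome 14. The last towers of chromosomes 18, beside Gm45871, and 16, nearest to B230307C23Rik, had 19045.6 and 14616.1 in WT and 19589.0 and 18120.4 in KO. Those of chromosome 2, beside Gm14496, and chromosome 19, nearest to the GM-CSF receptor gene Csf2ra, had 14937.0 and 9892.6 in WT and 14993.9 and 11329.1 in KO. The chromosome 3 tower began 0.619 kb past Wls, a gene needed for Wnt secretion, with 9801.1 in WT and 10700.4 in KO. The chromosome 1 tower lay 194.7 kb from the complement receptor gene Cr2, with 7401.3 and 8658.9. The remaining site of the 12, on chromosome X at 170758103 to 170758640, lay past the melatonin synthesis gene Asmt and before the last peak of that chromosome, with 9079.7 and 9881.2. Every one of these pileups was over 100 times the median of the ordinary peaks in its list.

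Most towers of each list met a tower of the other list. All 134 WT towers overlapped some KO peak by at least 1 bp (100%, exact Clopper-Pearson 95% interval 97.3 to 100%), against 46.4% of all WT peaks. Of the KO towers, 110 of 114 overlapped a WT peak (96.5%, interval 91.3 to 99%), against 45.9% of all KO peaks. Overlap with a tower of the other list was 79.9% in WT (72.1 to 86.3%; 0.351% of all WT peaks) and 93% in KO (86.6 to 96.9%; 0.417% of all KO peaks). The rule that chose the towers shapes these contrasts. With 114 KO and 134 WT towers in all, few peaks of either list could meet a tower of the other. Ordinary WT peaks ran down to a pileup of 16, so many lay nearer the calling limit than any tower. The shares of all peaks are therefore given as a description. The intervals cover counting error only and are too narrow where several peaks share a site.

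At the level of sites, 89 of 111 held a tower in both lists, 18 in WT alone and 4 in KO alone. Each of the 22 sites with towers in 1 list had an ordinary peak in the other, so no tower site was without a peak in either library. At the 18 WT-only sites the WT pileup ran from 102.2 to 158.0 and the KO pileup from 64 to 99.5, with a median of 85.7. At the 4 KO-only sites the WT pileup was 71.7 to 95.8. The WT-only sites included Lrp1b, a lipoprotein receptor gene, with 103.0 in WT and 99.0 in KO, and Sfi1, a centrin-binding protein gene, with 114.7 and 83.4. The other WT-only sites inside coding genes were Gm10410 (158.0 and 93.8), Gm3629 (145.4 and 97.5) and Gm2977 (102.9 and 77.9), all on chromosome 14.

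The values next to the threshold show how gradual the choice was. Just inside it, the 5 lowest WT towers had pileups of 100.5 (nearest Zfp326), 102.1 (Speer4d), 102.2 (Btbd35f6), 102.2 (Dpp10) and 102.4 (Gm17019). Just outside, the 5 highest ordinary WT peaks had 99.6 (Speer4e), 97.8 (Diaph2), 96.6 (Gm9758), 95.8 (Tbl1xr1) and 95.5 (Btbd35f29). The 5 lowest KO towers had 100.9 (Abhd6), 101.2 (Gm17019), 101.6 (Gm20939), 103.5 (Zfp326) and 103.9 (Tbl1xr1), and the 5 highest ordinary KO peaks 99.5 (Nav3), 99.4 (Speer4d), 99 (Lrp1b), 98.5 (Dpy19l2) and 97.9 (P4ha2). Tbl1xr1 was therefore outside in WT and inside in KO at pileups of 95.8 and 103.9.

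The 4 KO towers with no overlapping WT peak all lay in 1 block at the start of chromosome 9. Their positions were 3029677 to 3029865, 3009319 to 3009507, 3022132 to 3022564 and 3015238 to 3016126, with pileups of 278.9, 262.9, 248.9 and 219.1. The nearest WT peak of each was 823 to 1997 bp away within the same block, and the nearest coding gene was the tRNA methyltransferase gene Alkbh8, 305.4 to 325.7 kb away. Their fold enrichments over the local background were low for towers, at 1.49 to 2.35, beside a median of 16 over all KO towers. The other KO towers of the block were also low, at 1.77 to 4.71.

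The order of the heights was almost the same in both libraries. Joining each WT peak with the KO peak that overlapped it most, in both directions, gave 105 pairs with towers in both lists. Across these pairs Spearman's rho of the pileup was 0.968 and Pearson's r of log10 pileup was 0.995. Over 14521 pairs of ordinary peaks rho was 0.874 and r 0.882. The 10 highest and the 20 highest pairs were the same in both lists. The correlations are descriptions over sites that share the 2 libraries, the threshold narrows the range of the ordinary pairs more than that of the towers, and pairs in 1 site are not independent. Among the 27 pairs at 1000 or more in both lists rho was 0.993, and among the other 78 it was 0.923.

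**Figure D1:**
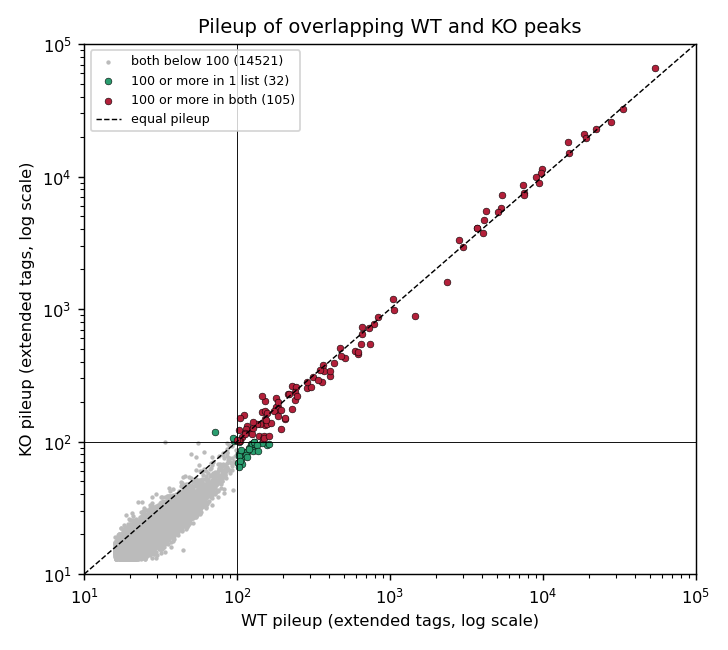
Pileup of each overlapping peak pair in WT (horizontal, log scale) and KO (vertical, log scale), as extended tags; thin lines mark the threshold of 100 and the dashed line equal pileup. The 105 pairs with towers in both lists follow the line of equal pileup, whereas the 14521 ordinary pairs lie mostly below it.

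Towers had about the same pileup in both libraries, while ordinary peaks had lower pileups in KO. The median KO over WT pileup ratio of the 105 tower pairs was 0.984 (quartiles 0.879 and 1.09, range 0.609 to 1.51), and KO was higher in 46 of 105 pairs, against 3.1% of all pairs. For the ordinary pairs the median was 0.745 (quartiles 0.679 and 0.817), and KO was higher in 405 of 14521. Between the libraries the ratio of total tags was 1.03, that of d 0.647, and that of tags times d, which scales the mean pileup of a genome evenly covered with extended tags, 0.667. By height, the 27 pairs at 1000 or more in both lists had a median of 1.09, with KO higher in 19, and the other 78 had 0.973. Pairs are kept only if both members reach 100, which removes low KO values near the threshold: the 32 pairs with a tower in 1 list had a median of 0.729.

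The ratio was highest in the narrowest towers. In the 60 tower pairs whose WT width exceeded d by less than 300 bp the median pileup ratio was 1.04 (quartiles 0.966 and 1.14). In the 35 pairs from 300 bp up to 1000 bp it was 0.862 (0.764 and 1.01), and in the 10 pairs of 1000 bp or more 0.913 (0.821 and 0.982). The ordinary pairs in the same width classes had medians of 0.745, 0.745 and 0.735. On the scale of implied tags, which takes the extension out, the median ratio was 1.11 over tower pairs and 0.951 over ordinary pairs, closer together than the pileups. Fold enrichment, which divides by a local background, gave medians of 1.37 and 1.12.

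Ttc21b and Tcp10c marked the ends of the ratio's range. The lowest ratio was 0.609, at Ttc21b, a gene of transport in the cilium, where the pileup was 1460.2 in WT and 889.7 in KO. Among the other lowest ratios were 0.641 nearest Gm15319, 0.678 nearest the vomeronasal receptor gene Vmn2r87, 0.685 nearest Gm40469 and 0.711 at Speer4c. On implied tags these pairs ranged from 0.607 at Ttc21b to 1.06 at Speer4c, so of these 5 only Ttc21b was as low on that scale. The highest ratio was 1.51 nearest Tcp10c, from 145.7 in WT to 219.5 in KO. Then came 1.45 at Gm35315, 1.43 nearest the neuropeptide gene Adcyap1, 1.34 at the neural adhesion gene Chl1, 1.33 nearest the myosin light chain kinase gene Mylk and 1.28 nearest the vesicle transport gene Rab10. Their implied tag ratios were 1.5, 1.44, 1.39, 1.25, 0.743 and 1.48. With no replicate, the spread that such ratios show between libraries of 1 genotype was not measured.

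Tower pairs were also centred on the same bases. The midpoints of the WT and KO peaks of a tower pair were a median of 9 bp apart, and 74 of 105 pairs were within 20 bp, against 10.9% of all pairs. In ordinary pairs the median was 110 bp, with 1513 of 14521 within 20 bp. At sites with at most 1 tower in each list the median was 6 bp, and 64 of 77 pairs were within 20 bp. At those sites the KO peak started 96 bp inside the WT peak and ended 97 bp inside it (medians), beside a difference in d of 103 bp. Ordinary KO peaks were inset by 41 and 37 bp. At sites of several towers the median insets were 2.5 and -4 bp, but single edges differed in either direction, with end insets from -1067 to 203 bp.

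Most towers were narrow, as most ordinary peaks were, and a minority were wide. Width less d is used here because extending tags by d fixes the smallest possible peak. In WT its median was 271.5 bp (quartiles 231 and 612.5, range 0 to 3258), against 193.5 bp in ordinary peaks (quartiles 63 and 393). In KO it was 180 bp (144.2 and 501, range 0 to 3496), against 187 bp. It was under 300 bp in 71 WT and 71 KO towers and 1000 bp or more in 19 WT and 14 KO towers. The medians of ordinary peaks were also under 300 bp, so this narrowness was not particular to towers. Narrow towers included the highest: the Adgre5 site exceeded d by 163 bp in WT and 72 bp in KO. The KO peak there started 91 bp and ended 103 bp inside the WT peak, beside a difference in d of 103 bp. Width less d may thus still depend on d, and its WT and KO values are not compared. At sites of several towers the medians were 589 bp in WT and 700 bp in KO, and at other sites 254 and 162 bp.

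Within the surrounding 10 kb, most tall towers held nearly all of the coverage. The caller's fold enrichment divides the pileup by the background of a 10 kb window, so fold times width, as a percentage of 10 kb, approximates the share of that window's coverage that lies in the peak; this measure was added after seeing the data and can pass 100%. Its median was 65.2% in WT towers and 13.2% in ordinary WT peaks, and 74.3% and 11.6% in KO. It was 80% or more in 36.6% of WT towers (28.4 to 45.3%; 0.164% of all WT peaks) and 41.2% of KO towers (32.1 to 50.8%; 0.168% of all KO peaks). Since fold enrichment rises with the pileup that chose the towers, nothing is read from these shares but their size. By site, the medians were 81% in WT and 81.4% in KO where a site had at most 1 tower in each list, and 23.9% and 24.1% where it had several.

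**Figure D2:**
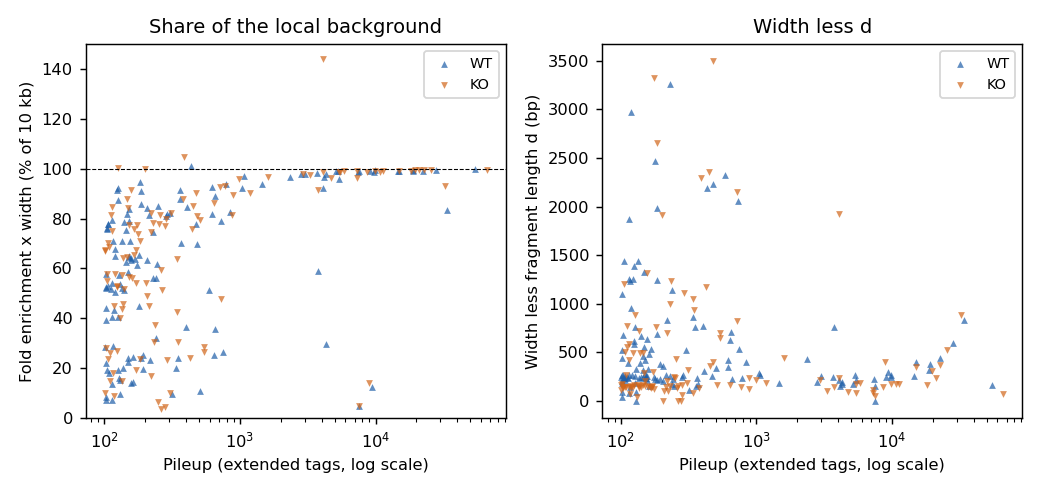
Left, fold enrichment times width as a percentage of 10 kb, and right, width less d in bp, against the pileup (log scale), with 1 point per tower peak (WT upward, KO downward triangles) and 100% dashed. Above a pileup of 1000 most towers lie close to 100% and are narrow, while the widest towers, up to 3496 bp, have low pileups.

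Towers had fewer ordinary peaks around them than ordinary peaks did. Ordinary peaks in a field count each other, which raises their numbers, and the number around an average place in the genome is not given here. The comparison therefore does not show that towers lie in places poor in peaks. Within 500 kb a WT tower had a median of 10 ordinary peaks (quartiles 3.25 and 23.5) and an ordinary WT peak 26 (15 and 40). In KO the medians were 8 (2 and 20.8) and 26 (15 and 41). No ordinary peak lay within 100 kb of 32.8% of WT towers (25 to 41.5%), against 3.97% of all WT peaks, and of 44.7% of KO towers (35.4 to 54.3%), against 4.21%. Within 500 kb the shares were 13.4% in WT and 10.5% in KO, against 0.462% and 0.442% of all peaks. Counting 1 peak per site, 38.3% of WT and 37.6% of KO towers had none within 100 kb. With the threshold lowered to a pileup of 50 the WT median rose to 31 and passed that of ordinary peaks, and the shares with none within 100 kb were 9.15% in WT and 25% in KO.

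Some towers did sit in fields of ordinary peaks. At least 20 ordinary peaks lay within 500 kb of 28.4% of WT towers and 28.1% of KO towers, against 63.1% and 63.7% of all peaks. Most neighbours were found at chr12:93576851-93577359, far from genes (681.9 kb from Gm40892), with 80 ordinary WT and 82 ordinary KO peaks and pileups of 4078.6 and 3763.1. Next were both sites near 20 Mb on chromosome 8, with 66 and 62 ordinary WT peaks and 71 and 64 in KO. The Speer4c site had 44 and 50 and the Speer4d site 43 and 50. Of these 5 sites the first was the only one with a pileup over 200 in either list.

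The most isolated towers were separated by megabases from the nearest ordinary peak. The tower at the end of chromosome 7 was 4618.6 kb away from it, and that near Rab10 at chr12:3109726-3110209 was 2092.2 kb away. At Smo, the signal transducer of the Hedgehog pathway, the distance was 1571.2 kb, with pileups of 127.1 in WT and 126.4 in KO. It was 1453.9 kb near Mylk (152.7 and 203.6), 1118.2 kb at the Adgre5 site and 1088.2 kb near the oligosaccharyltransferase gene Stt3b (113.2 and 114.3). Isolation was thus seen among both the tallest towers and towers little above 100.

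**Figure D3:**
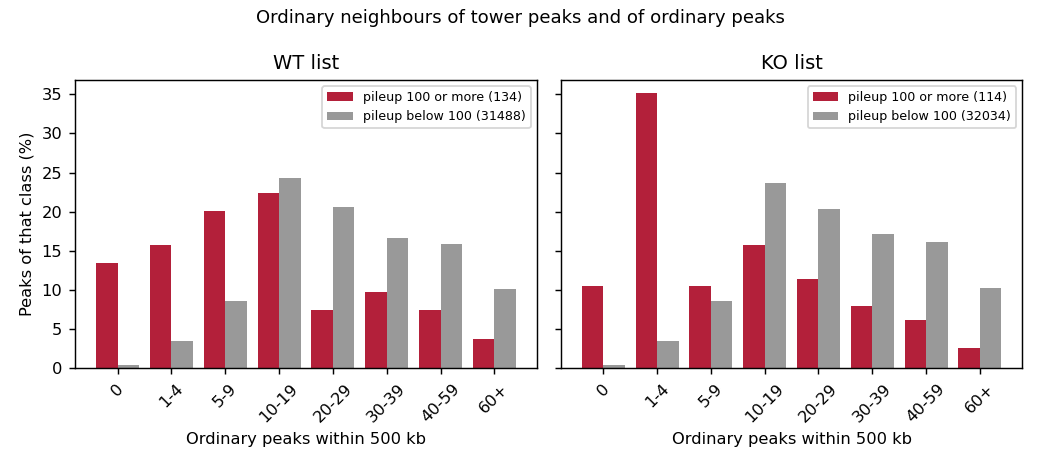
Share of peaks (%, vertical) by the number of ordinary peaks within 500 kb (horizontal), for towers (red) and ordinary peaks (grey) in the WT list (left) and the KO list (right). Towers are spread toward 0 to 9 neighbours, with 13.4% of WT and 10.5% of KO towers at 0, while ordinary peaks centre on a median of 26.

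The chromosome ends held a large share of the towers. Chromosome spans were taken from the outermost gene or peak, so distances from the true ends are not given; mouse chromosomes have their centromere at the proximal end. Within 5 Mb of either end of the span lay 38.8% of WT towers (30.5 to 47.6%; 7.9% of all WT peaks) and 43.9% of KO towers (34.6 to 53.5%; 8.07% of all KO peaks). Those stretches made up 7.78% of the span. The proximal 5 Mb held 20.9% and 22.8% (4.5% and 4.51% of all peaks), and the distal 5 Mb 17.9% and 21.1% (3.4% and 3.56%). At the proximal end the blocks at the starts of chromosomes 9 and 10 held 11 and 3 WT and 15 and 3 KO towers, and with 1 peak per site the proximal share was 15% in WT and 10.8% in KO, while the distal share was 22.4% and 25.8%. With 1 peak per site the share at either end was 37.4% in WT and 36.6% in KO, and at a threshold of 50 it was 14.2% and 28.3%.

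The distal end was marked most regularly. The last WT peak of the chromosome was a tower on 15 of 20 chromosomes and the last KO peak on 16, and on 15 in both. The exceptions in both lists were chromosomes 4, 6, 9 and 15. Chromosome 17 was an exception in WT alone, where its last peak had a pileup of 94.8 against 101.6 in KO. The last towers had a median pileup of 9801.1 in WT (214.7 to 28009.0) and 9679.6 in KO (101.6 to 25670.2), while the last peaks that were no towers had 19.4 to 94.8 and 17.1 to 47.9. They lay 0.619 to 202.8 kb past the last annotated gene in WT, with a median of 16.8 kb, and made up 10 of the 20 highest towers in each list. Fold times width reached a median of 99% of the 10 kb window in WT and 98.8% in KO. This is a description only, since fold enrichment rises with the pileup that chose the towers. The first peak of the chromosome was a tower on 3 of 20 chromosomes in each list, namely 9, 10 and 12.

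**Figure D4:**
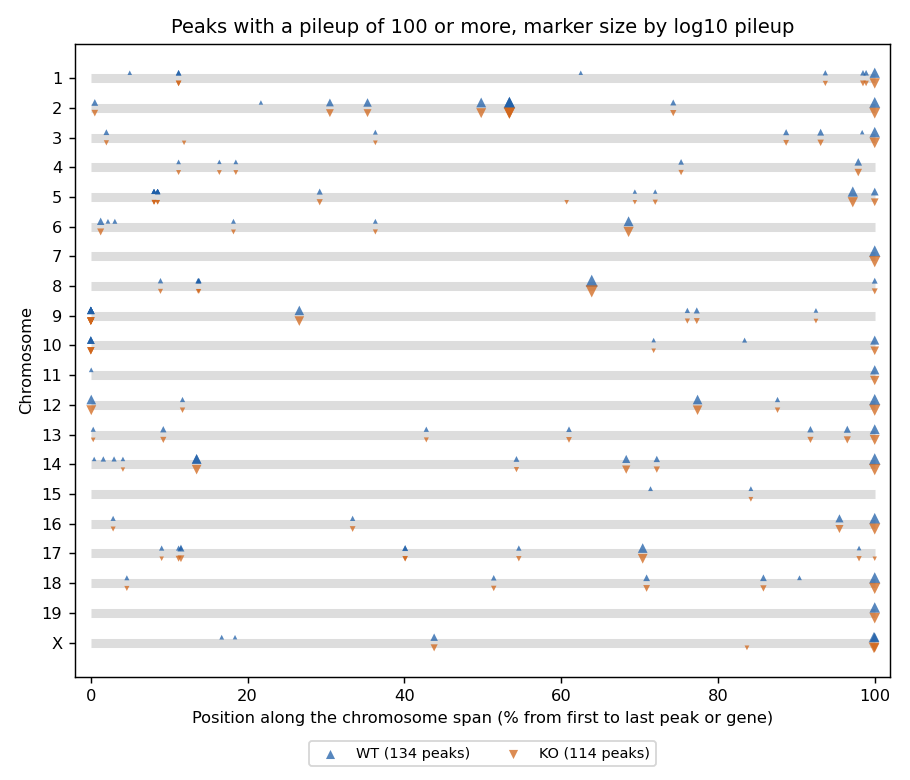
Position of every tower peak along its chromosome (horizontal, % of the span from the first to the last peak or gene), by chromosome (vertical), with WT as upward and KO as downward triangles whose size grows with log10 pileup. Large markers stack at the right edge, the distal end, where 15 chromosomes have a tower as their last WT peak and 16 as their last KO peak.

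Towers also came in blocks, at 12 sites with several towers in a list that held 39 WT and 33 KO peaks. The largest spanned 38280 bp from the first peak of chromosome 9, from 3000002 to 3038281, with 11 WT and 15 KO towers and highest pileups of 730.5 and 726.0. A microRNA gene, Mir101c, lay 0.388 kb from it, and the nearest coding gene, Alkbh8, 296.9 kb. The block at chr10:3109534-3116991 had 3 towers in each list, up to 745.9 in WT and 543.5 in KO. At chr17:39843044-39848619, over Rn18s-rs5, a sequence related to 18S ribosomal RNA, there were 2 towers in each list, up to 229.8 and 176.3. At chr1:24611658-24616095, over the pseudogene Gm10222, there were 2 in each, up to 185.9 and 183.6. The site at chr14:19416888-19419056 had 2 WT towers, up to 4301.5, and 1 KO tower of 4095.1.

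Genes of the Speer family lay near some other blocks. Around 15 Mb on chromosome 5, where genes of the Speer family and related predicted genes lie, 4 blocks near Gm10354, Gm17019, Speer4d and Speer4c held 2, 3, 5 and 2 WT towers and 2, 1, 1 and 1 KO towers. Their highest pileups were 125.7 to 162.4 in WT and 101.2 to 117.2 in KO. Both chromosome 8 blocks, near Gm15319 and Gm40469, had 2 WT towers and 1 KO tower each, and no gene family was assigned there. Genes of a family such as Speer share sequence, and reads that fit several copies can in general be placed at any of them. That would leave the copy uncertain, which was not tested.

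The shares of towers inside genes were below those of all peaks, with intervals that include the share of all peaks. Those intervals are too narrow where several towers share a site, and they do not show that the shares are equal. With 1 peak per site the share inside coding genes was 27.1% in WT and 26.9% in KO. The midpoint lay in a coding gene in 23.1% of WT towers (16.3 to 31.2%; 29% of all WT peaks) and 21.9% of KO towers (14.7 to 30.6%; 29% of all KO peaks), while coding genes made up 40% of the span. For any annotated gene the shares were 36.6% and 33.3%, against 37.9% and 37.8% of all peaks. Of the 111 sites, 30 touched a coding gene and 48 any gene, and the median distance to a coding gene was 27.2 kb. The farthest, 2102.2 kb, was between a chromosome 14 tower and the protocadherin gene Pcdh9. Whether a tower lay in an exon or an intron was not determined, since exon positions were not used here.

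The tallest towers inside genes were at Flt1, Chl1 and Lama1, 3 genes of growth factor signalling, cell adhesion and the basement membrane. Flt1, which encodes a VEGF receptor of blood vessels, held one of 7549.4 in WT and 7275.0 in KO at chr5:147611293-147611735, with 0 and 1 ordinary peaks within 500 kb. Chl1 held one of 5418.8 and 7251.3 at chr6:103648930-103649435, among 33 and 38 ordinary peaks. Lama1, a laminin chain, had 4155.6 and 4721.4 at chr17:67741222-67741671. After Ttc21b came Dop1b, with 1065.0 and 989.9, and Ppp1r9a, the actin-binding neurabin, with 621.8 and 454.0. Cldn34d, a claudin gene on X, had 620.6 and 475.5. These 7 genes differed in surroundings, from no ordinary WT peak within 500 kb at Flt1 and Cldn34d to 37 at Ttc21b.

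Lower towers stood in genes of varied function. Nedd4l, a ubiquitin ligase, had 363.9 in WT and 378.7 in KO, Slc14a2, a urea transporter, 361.2 and 282.2, and Plcb4, a phospholipase C, 229.3 and 264.3. Pxylp1 had 248.3 and 222.0, the potassium channel gene Kcnh1 180.0 and 214.3, and Hsd11b1, which activates glucocorticoids, 185.7 and 175.6. In none of these did the KO value differ from WT by more than 1.5 times. Other coding genes with towers in both lists were Dlgap2, Greb1, Speer4c, Ror2, Aida, Gm35315, Pde1c, Nkain3, Smo, Gm17019 and Abhd6. Their highest pileups ran from 100.9 for Abhd6 in KO to 167.5 for Dlgap2 in WT.

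Few genes of any kind held a tower. The midpoint of a tower lay inside 0.139% of coding genes in WT and 0.116% in KO, and that of an ordinary peak inside 8.69% and 8.85%, so a count of 0 in a short list of genes is near the background. Of 20 B cell identity genes, among them Pax5 and Ebf1, none had a tower inside or within 10 kb, nor any ordinary peak. The antigen receptor loci, 6 large gene regions, had 49 ordinary WT and 50 ordinary KO peaks inside and no tower. The 5 T cell and 4 myeloid marker genes had no tower, with 23 and 1 ordinary peaks inside them in each list. H3K9me2 at these genes does not measure their expression, so the lists do not check the labelled cell type. Among gene families, 1427 olfactory receptor, 356 vomeronasal receptor and 416 zinc finger genes had no tower inside, and held 160, 53 and 69 ordinary WT peaks; towers lay inside 0.0996% of all annotated genes in WT and 0.0793% in KO, and ordinary peaks inside 7.3% and 7.43%. The 15 Speer family genes, added after seeing the data, had 3 WT towers and 1 KO tower inside, beside 14 and 18 ordinary peaks. The 24437 predicted genes, of 49205 annotated genes in all, had 21 and 14 towers, beside 3272 and 3287 ordinary peaks.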

How the data were processed

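Peak lists of 2 CUT&Tag libraries for H3K9me2, 1 per genotype, were analysed under their genotype labels. The mm10 build and, without roles, deepTools, HOMER, MACS2, Picard, SAMtools, Bowtie2 2.4.2 and Trim Galore 0.6.6 are named in the submitters' processing notes. Broad peaks were called in each library by the authors with MACS2 2.2.7.1, per the file headers, at q and broad cutoffs of 0.01, keeping all duplicate tags, without a control, with single-end extension to d and a local background window of 10000 bp. The deposited pileup is a coverage signal, unscaled between libraries, that the caller averages over a broad peak. Significance was deposited as −log10 of the p-value and of the q-value, and the deposited fold enrichment is the authors' ratio to the local background. Pileup, width and fold therefore depend on d, and kept duplicates can raise narrow peaks.

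Towers, sites and genes were computed with Python 3.11.15, pandas 2.3.3, NumPy 2.4.6 and SciPy 1.17.1. Overlap needed 1 bp, and shares carry exact Clopper-Pearson 95% intervals. Genes came from RefSeq GRCm38.p6, 49205 on these chromosomes, of which 21517 are coding, with 345 patch or unplaced genes left out. Coordinates count from 1. Code was tested on simulated peaks. Of the gene lists, histone symbols matched no gene and the ribosomal RNA list 1 of 2, Rn4.5s, while Rn45s was not matched. That list also left out Rn18s-rs5, which had towers over it, so it does not cover ribosomal RNA sequence. Rn4.5s, 83 defensin, 69 5S and 79 X-linked germ cell genes had no tower inside. Sfi1 had 1 WT tower. The planned sequence measures needed a genome and were not computed here.

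Named were the 12 highest sites, the 5 peaks on each side of the threshold, the 6 most isolated and the 6 most crowded sites, towers without overlap, the 6 pairs with the highest and the 6 with the lowest ratio, and up to 30 sites inside coding genes; some of these are not reported here. Blocks of several towers were named after their values were seen. The members, lists and tests were chosen with earlier results of these data known. Alternatives were other thresholds, windows, overlaps, gene classes and values of d.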

Additional observations from a re-analysis of the deposited data

Results flagged for a closer look

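Peaks with a pileup of 100 or more also lay outside chromosomes 1 to 19 and X, in data that none of the comparisons used. The mitochondrial genome had 4 in WT and 4 in KO, which were all of its peaks, with median pileups of 407.6 and 395.8. The Y chromosome had 1 in each list, with 445.9 in WT and 463.1 in KO. One unplaced scaffold had 29 in WT, all of its 29 peaks, and 27 of its 31 peaks in KO, with medians of 170.6 and 158.0. The other scaffolds had 2 among 154 peaks in WT and 1 among 163 in KO. There was no control library against which to set these values.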

How the results depend on the processing

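No paired analysis was possible because each genotype had 1 library and the labels give no replicate numbers. Of 94 alternative values, 49 moved by less than their counting interval or 1.5 times and 45 moved more. The comparison of neighbours in WT turned round at a threshold of 50, and the median pileup ratio crossed 1 on other scales. The pileup threshold mattered most. At 50 there were 787 WT and 276 KO towers at 590 sites, and at 200 there were 65, 69 and 55. At 50 the overlap of WT towers with any KO peak was 92.6% and with a KO tower 32.5%, the median pileup ratio 0.859, and the median width less d 375.0 bp in WT and 265.0 bp in KO. At 50 the median number of ordinary peaks within 500 kb was 31 in WT, above the ordinary median of 26, and 14 in KO. The share with none within 100 kb was 9.15% and 25%, and the share within 5 Mb of an end 14.2% and 28.3%. At 200 the WT overlap with KO towers was 95.4% and rho 0.993.

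With the KO threshold scaled by tags times d, to 66.7, there were 181 KO towers, 73.5% of them over a WT tower, and 99.3% of WT towers had a KO tower. A reciprocal overlap of 50% left 94.8% of WT towers, and 1 peak per site gave 100% for KO and a proximal share of 10.8%. Pairs with either pileup at 100 had rho 0.933. The median ratio was 1.37 on fold enrichment and 1.11 on implied tags. With the alternative d of 191 bp in WT and 293 bp in KO, width less d was 372.5 and 76 bp. The median number of ordinary peaks was 1 in WT and 1 in KO within 100 kb and 21.5 and 18 within 1 Mb; with ordinary peaks of q at 1e-05 or lower it was 1 and 0. None within 50 kb held for 52.2% and 61.4%, within 500 kb for 13.4% and 10.5%, and at the stricter q for 64.9% and 75.4%. Within 2 Mb of an end lay 28.4% of WT towers. Inside any gene lay 36.6% and 33.3%. In each case the cause was not tested. Without replicates or a control, neither the spread between libraries nor the level of towers without the antibody was measured, and depth is known only as total tags with duplicates.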
